A study of Mus musculus with 8 samples.

Results

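The genes described here are the sorting nexins and the Vps (vacuolar protein sorting) genes, which build and steer the machinery that sorts proteins at endosomes. They were taken by name alone, as every gene whose platform symbol is Snx or Vps followed by a digit and that has a probe set assigned to no other gene. This gave 65 of the 18193 genes measured, of which 30 were Snx and 35 were Vps genes. RNA came from the striatum of 8 mice aged 22 months, all C57BL/6 X CBA F1 hybrid, with 1 array per mouse. The 4 CHL2 mice carried on both copies of the endogenous Huntington's disease gene 150 CAG repeats taken from exon 1 of the human gene, inserted by knock-in, so every cell carries the allele. The CHL2 group comprised the females 141, 153 and 154 and the male 191, the wild-type group the female 161 and the males 170, 180 and 200. The comparison asks which members differ in level between old striata with and without the expanded repeat.

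Endosomes receive proteins from the cell surface and from the Golgi and pass them on by several routes. Retromer, built from Vps35, Vps26 and Vps29, retrieves receptors for return to the Golgi or the plasma membrane, and sorting nexins bind phosphoinositides through their PX domain and help to place it on the membrane and to shape tubules. The ESCRT complexes send ubiquitinated cargo the other way, into vesicles inside the endosome that end in the lysosome. The HOPS and CORVET tethers bring endosomes and lysosomes together, GARP and EARP tether carriers that return to the Golgi or recycle, and Vps13 proteins pass lipids between membranes at contact sites. In neurons these routes set the supply of surface receptors, and huntingtin itself is known to take part in vesicle transport.

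Values are log2 RMA values per probe set, so a difference of 1 is a doubling, and levels of different genes are not set against each other because probes differ in brightness. Each gene is read from its brightest probe set, and a gene is said to be higher or lower where limma's moderated test with genotype and sex as terms gave a Benjamini-Hochberg adjusted p under 0.05 over all 18193 genes. Log2 changes are CHL2 minus wild type after allowing for sex, and can depart from the difference of the plain means.

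Htt itself, the gene that carries the repeat, averaged 7.28 ± 0.16 in CHL2 and 7.86 ± 0.07 in wild-type mice (SD, n = 4 each; log2 change -0.67, SE 0.09, limma adjusted p = 0.00101), a difference in level that does not show the repeat itself. All 12 measured markers of medium spiny neurons, the main neurons of the striatum, were lower, with a mean level of 9.97 to 10.20 in the CHL2 mice and 11.34 to 11.46 in the wild-type mice. Of 8 general neuron markers 1 was higher (Stmn2, log2 change 1.03) and 0 lower, with a median log2 change of 0.01. Their mean level of 11.14 to 11.29 in CHL2 mice lay above the 10.90 to 11.11 of the wild-type mice. Of 8 astrocyte markers 2 were higher (Gfap and S100b) and 0 lower, with a median log2 change of -0.03. Among them Sox9 had -0.31 and missed the threshold (limma adjusted p = 0.0574). Of 9 microglial markers 0 passed in either direction, and of 7 oligodendrocyte markers 1 was higher and 1 lower. Among 4 oligodendrocyte precursor markers 0 passed, with a median log2 change of 0.07. Their mean level was 7.30 to 7.41 in CHL2 mice, overlapping the 7.18 to 7.31 of the wild-type mice. Of 7 endothelial and mural markers 0 passed, yet their mean level of 6.50 to 6.62 in CHL2 mice lay below the 6.62 to 6.83 of the wild-type mice. Some lists varied within groups: the mean of 6 choroid plexus and ependymal markers was highest in CHL2 mouse 141, at 7.75, and wild-type mouse 161, at 7.27. That of 5 cortical neuron markers ran from 5.16 in mouse 191 to 6.88 in mouse 154 among CHL2 mice and from 5.78 to 6.59 among wild-type mice, and 0 of either list passed (lowest adjusted p 0.0574, Slc17a7, log2 change -1.45). Blood markers stood near the low end of the scale, at mean levels of 3.99 to 4.21 in CHL2 and 3.90 to 4.34 in wild-type mice. In whole striatum, fewer cells of a type and less RNA per cell cannot be told apart, and the part of cell composition in the changes below was not tested. Wild-type mouse 170 stood apart in RNA quality, with a 3' minus 5' difference of 1.37 for Gapdh and 2.65 for beta-actin, against 0.32 to 0.43 and 1.23 to 1.51 in the other 7 mice. Without mouse 170 all 12 members reported below as higher or lower were still so, and Snx13 passed as well.

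Of the 65 members, 10 were higher in CHL2 striatum (Snx16, Snx12, Snx4, Vps37d, Vps13c, Snx10, Vps28, Snx14, Snx2 and Snx6) and 2 were lower (Snx25 and Vps37b). These are 15.4% and 3.08% of the members, beside 6.4% higher and 6.01% lower among all genes. Bright genes pass more readily than dim ones, and among the genes with a mean level of 5 or more the shares were 16.1% higher and 3.23% lower for 62 members, beside 9.55% and 8.87% for all such genes (19.4% and 18.4% in either direction). The median log2 change of the 65 members was 0.10, beside 0.01 over all genes and 0.04 over genes with a level of 5 or more. By sign alone 44 of 65 members lay above 0, a share of 67.7%, beside 51.2% of all genes and 56.6% of genes with a level of 5 or more. In 15 members every CHL2 value exceeded every wild-type value and in 2 every one was below, together 26.2% of the members beside 20.7% of all genes (11.4% above and 9.27% below). At a level of 5 or more this order was turned round, with 27.4% of the members and 29.8% of all genes. No change at a gene's brightest probe set was as large as a doubling: they ran from -0.40 for Vps37b to 0.73 for Snx16. Without a sex term 10 members were higher and 1 lower, beside 7.66% and 7.5% of all genes. Split by name, 7 Snx genes were higher (23.3%) and 1 lower (3.33%), while 3 Vps genes were higher (8.57%) and 1 lower (2.86%).

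**Figure D1:**
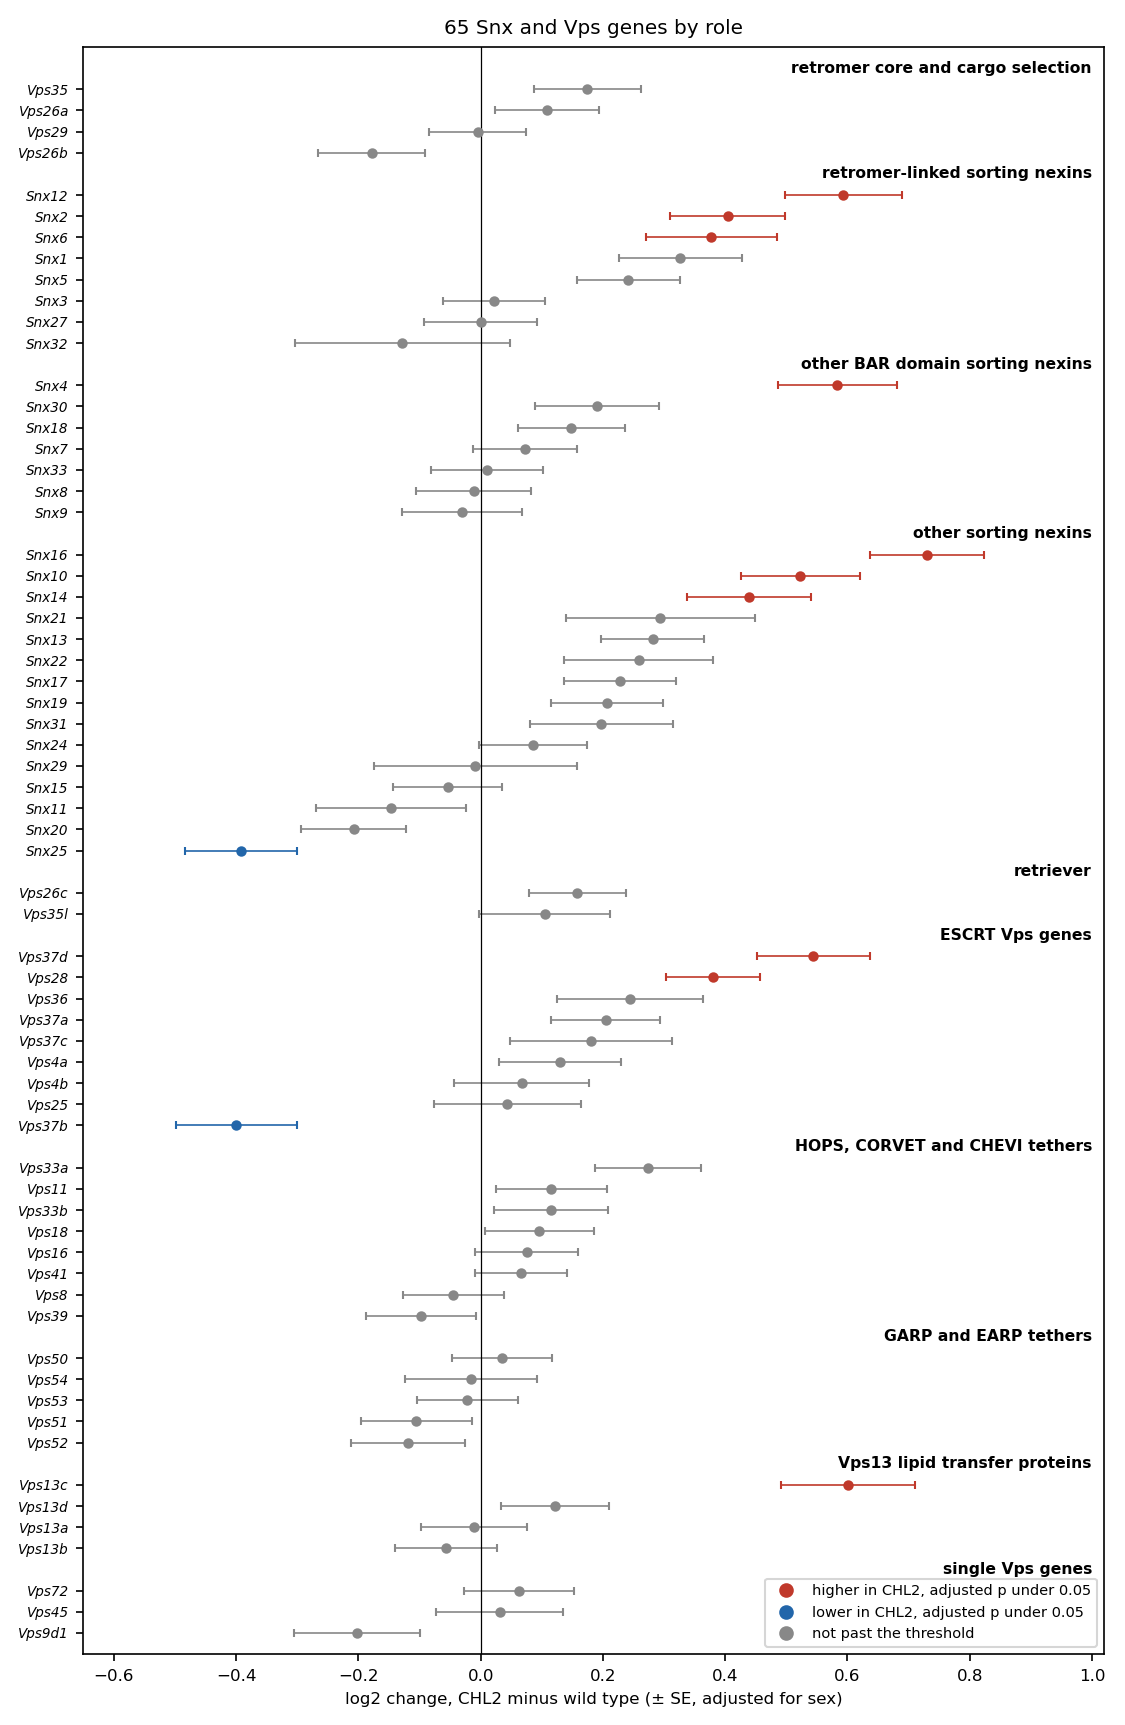
The sex-adjusted log2 change (CHL2 minus wild type, horizontal axis) of each of the 65 genes, grouped by role, with its SE as the bar; coloured points passed an adjusted p of 0.05. Members that passed lie among the sorting nexins, the ESCRT genes and the Vps13 genes, from -0.40 to 0.73, and none is a retromer core, retriever or tether subunit.

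Promoter sequence was available for 43 of the 65 members, among them 7 of the 12 that passed (Snx12, Snx4, Vps37d, Snx10, Snx14, Snx25 and Snx6), in the RefSeq promoter table of build GRCm38.p6. Over the 250 bases before the start, the median GC content was 62.0% in the members' promoters, with 19 CG dinucleotides, and 52.4% with 6 CG dinucleotides in all promoters of the table. The motifs searched on both strands were picked with the expression values known. The ETS motif CCGGAAGT lay before 6 of the 43 members (14.0%; Snx12, Snx14, Snx17, Vps26c, Vps52 and Vps53), beside 3.23% of all 27025 genes in the table, and Snx12 and Snx14 were the holders that were higher in CHL2 mice. The E-box TCACGTGA, known as the core of the site bound by TFEB, a regulator of lysosomal genes, lay before 3 members (6.98%; Vps16, Vps26a and Vps33a), beside 0.907% of all genes, and 0 of these 3 passed the test. Its shorter core CACGTG, which the longer motif contains, lay before 6 members (14.0%) beside 6.86% of all genes, and 0 of them passed. GGGGCGGGG, a GC box, lay before 12 members (27.9%) beside 11.8% of genes, 4 of them among those that passed (Snx10, Snx14, Snx25 and Snx6). TGACGTCA, a cyclic AMP response element, lay before 0 members and 1.77% of genes. Every motif searched holds a CG, and the shares were not matched for GC content or CG dinucleotides, which were higher in the members' promoters. They therefore cannot show that a motif is particular to these genes. A match is a run of letters and says nothing of binding. The 4 windows below, from RefSeq (GRCm38.p6, 5′ to 3′ along the gene), show the ETS motif before the higher members Snx12 (chrX:101222564-101222813, minus strand) and Snx14 (chr9:88438930-88439179, minus strand), and the E-box before the tether genes Vps33a (chr5:123573016-123573265, minus strand) and Vps16 (chr2:130424070-130424319, plus strand). Capitals mark the motif. In Snx12 it begins 102 bases before the start, in Snx14, where it reads from the opposite strand, 155 bases, and in Vps16 19 bases, and Vps33a holds a pair of copies beside each other close to the start.
Snx12: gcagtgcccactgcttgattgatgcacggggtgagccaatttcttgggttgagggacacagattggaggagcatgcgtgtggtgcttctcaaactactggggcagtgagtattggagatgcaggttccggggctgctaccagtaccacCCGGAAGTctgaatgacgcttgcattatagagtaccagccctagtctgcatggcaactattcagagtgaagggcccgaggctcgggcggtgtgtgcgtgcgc
Snx14: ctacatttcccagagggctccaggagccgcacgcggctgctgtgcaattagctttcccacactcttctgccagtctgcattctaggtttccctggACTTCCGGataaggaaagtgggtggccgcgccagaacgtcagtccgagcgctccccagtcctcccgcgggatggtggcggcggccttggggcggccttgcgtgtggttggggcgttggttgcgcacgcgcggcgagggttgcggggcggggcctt
Vps33a: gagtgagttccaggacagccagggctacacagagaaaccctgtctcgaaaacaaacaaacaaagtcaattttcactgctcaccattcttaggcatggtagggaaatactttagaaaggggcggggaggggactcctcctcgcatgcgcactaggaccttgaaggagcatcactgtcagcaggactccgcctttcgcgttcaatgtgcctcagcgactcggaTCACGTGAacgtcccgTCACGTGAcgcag
Vps16: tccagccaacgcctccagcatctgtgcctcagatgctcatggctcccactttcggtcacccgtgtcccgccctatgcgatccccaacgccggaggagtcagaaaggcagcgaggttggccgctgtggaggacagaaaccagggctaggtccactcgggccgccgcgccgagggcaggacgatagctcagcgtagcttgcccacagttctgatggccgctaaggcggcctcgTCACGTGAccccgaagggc

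In what follows, values per mouse are log2 levels given for the CHL2 mice in the order 141, 153, 154 and 191 and for the wild-type mice in the order 161, 170, 180 and 200. Of the 4 retromer core genes, 0 passed limma's test in either direction, and 0 had an unadjusted p under 0.05, beside 4703 of all 18193 genes. With 4 genes such a count says little. Vps35, the scaffold of the complex, read 10.43, 10.44, 10.38 and 10.49 in CHL2 mice, against 10.22, 10.41, 10.42 and 10.20 in wild-type mice. The groups overlapped, and the log2 change was 0.17 (95% confidence interval -0.02 to 0.37, limma adjusted p = 0.242). Vps29, which binds Vps35 at the far end from Vps26, read 10.82, 10.89, 10.78 and 10.82 in CHL2 mice, against 10.79, 10.88, 10.81 and 10.91 in wild-type mice. Its values ran together in both groups, with an interval for the log2 change of -0.18 to 0.17 (adjusted p = 0.981).

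Vps26a and Vps26b, alternative subunits for the same place in retromer, lay on opposite sides. Vps26a read 9.11, 9.28, 9.08 and 9.01 in CHL2 mice, against 8.99, 8.99, 8.96 and 8.92 in wild-type mice. Every CHL2 value was above every wild-type value, by a narrow margin (log2 change 0.11, interval -0.08 to 0.30, limma adjusted p = 0.488). Vps26b, the paralog known for its high level in brain, read 8.67, 8.86, 8.74 and 8.85 in CHL2 mice, against 8.97, 9.07, 9.0 and 8.89 in wild-type mice. Every CHL2 value was below every wild-type value, and the log2 change of -0.18 (interval -0.37 to 0.02, adjusted p = 0.237) missed the threshold. The difference between the changes of the paralogs was not tested.

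Among the 8 sorting nexins that work with retromer, 3 were higher in CHL2 mice (37.5%) and 0 lower, with a median log2 change of 0.28. Among all genes with a level of 5 or more 9.55% were higher and 8.87% lower, with a median of 0.04. Without a sex term the class median was 0.18. The 3 higher genes became 1 without moderation or at an adjusted p under 0.01, where 3.78% and 2.47% of all genes were higher. They became 5 with a trended and robust prior or without genes under the median level, where 8.17% and 15.4% of tested genes were higher. The count also fell without mouse 191 or mouse 161. With 8 genes such a count says little. Snx12, a PX-only nexin closely related to Snx3, read 8.14, 8.22, 8.11 and 7.94 in CHL2 mice, against 7.43, 7.55, 7.53 and 7.34 in wild-type mice. The groups lay well apart, at 8.10 ± 0.12 and 7.46 ± 0.10 (SD, n = 4 each), and Snx12 was 1.51-fold higher (log2 change 0.59, SE 0.10, limma adjusted p = 0.00292). Its call was lost without wild-type mouse 161 (0.46, adjusted p = 0.0791). Snx3 itself, which recruits retromer to early endosomes and whose probe set had the highest mean value among the members, averaged 11.20 ± 0.06 in CHL2 and 11.19 ± 0.08 in wild-type mice (log2 change 0.02, interval -0.16 to 0.21, adjusted p = 0.911), and the sign of this small value turned in some alternatives. The difference between Snx12 and Snx3 was not tested.

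Snx1 and Snx2 pair with Snx5 or Snx6 through their BAR domains to form the curved coat of endosomal tubules. Snx2 read 9.0, 9.04, 9.26 and 9.37 in CHL2 mice, against 8.77, 8.82, 8.89 and 8.94 in wild-type mice. All 4 CHL2 values were above all 4 wild-type values, and Snx2 was 1.32-fold higher (log2 change 0.40, SE 0.09, limma adjusted p = 0.0189). Snx6 read 8.29, 8.07, 8.16 and 8.55 in CHL2 mice, against 7.89, 8.22, 7.89 and 8.13 in wild-type mice. The groups overlapped, since CHL2 mice 153 and 154 lay below wild-type mouse 170, and the sex-adjusted change of 0.38 (SE 0.11, 1.30-fold, adjusted p = 0.0446) was the closest to the threshold of the 12. Without a sex term it was 0.23 with an adjusted p of 0.223, against 0.31 and 0.0479 for Snx2. Without mouse 191 the changes were 0.32 for Snx2 (adjusted p = 0.244) and 0.28 for Snx6 (0.377), and without mouse 161 they were 0.48 (0.0815) and 0.47 (0.126). Snx6 also missed the threshold without mouse 141, 154, 180 or 200, at adjusted p of 0.0614 to 0.0758.

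Snx1 stood just outside the threshold. It read 8.14, 7.94, 7.88 and 7.86 in CHL2 mice, against 7.52, 7.69, 7.73 and 7.60 in wild-type mice. The groups did not overlap, with a change of 0.33 (SE 0.10, limma adjusted p = 0.0603), and in the fit without sex it passed (adjusted p = 0.0262). Snx5 had a change of 0.24 (adjusted p = 0.0943). Snx27, whose PDZ domain picks receptors for recycling to synapses and the cell surface, had an interval of -0.21 to 0.20 around a change of 0.00 (adjusted p = 0.999).

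**Figure D2:**
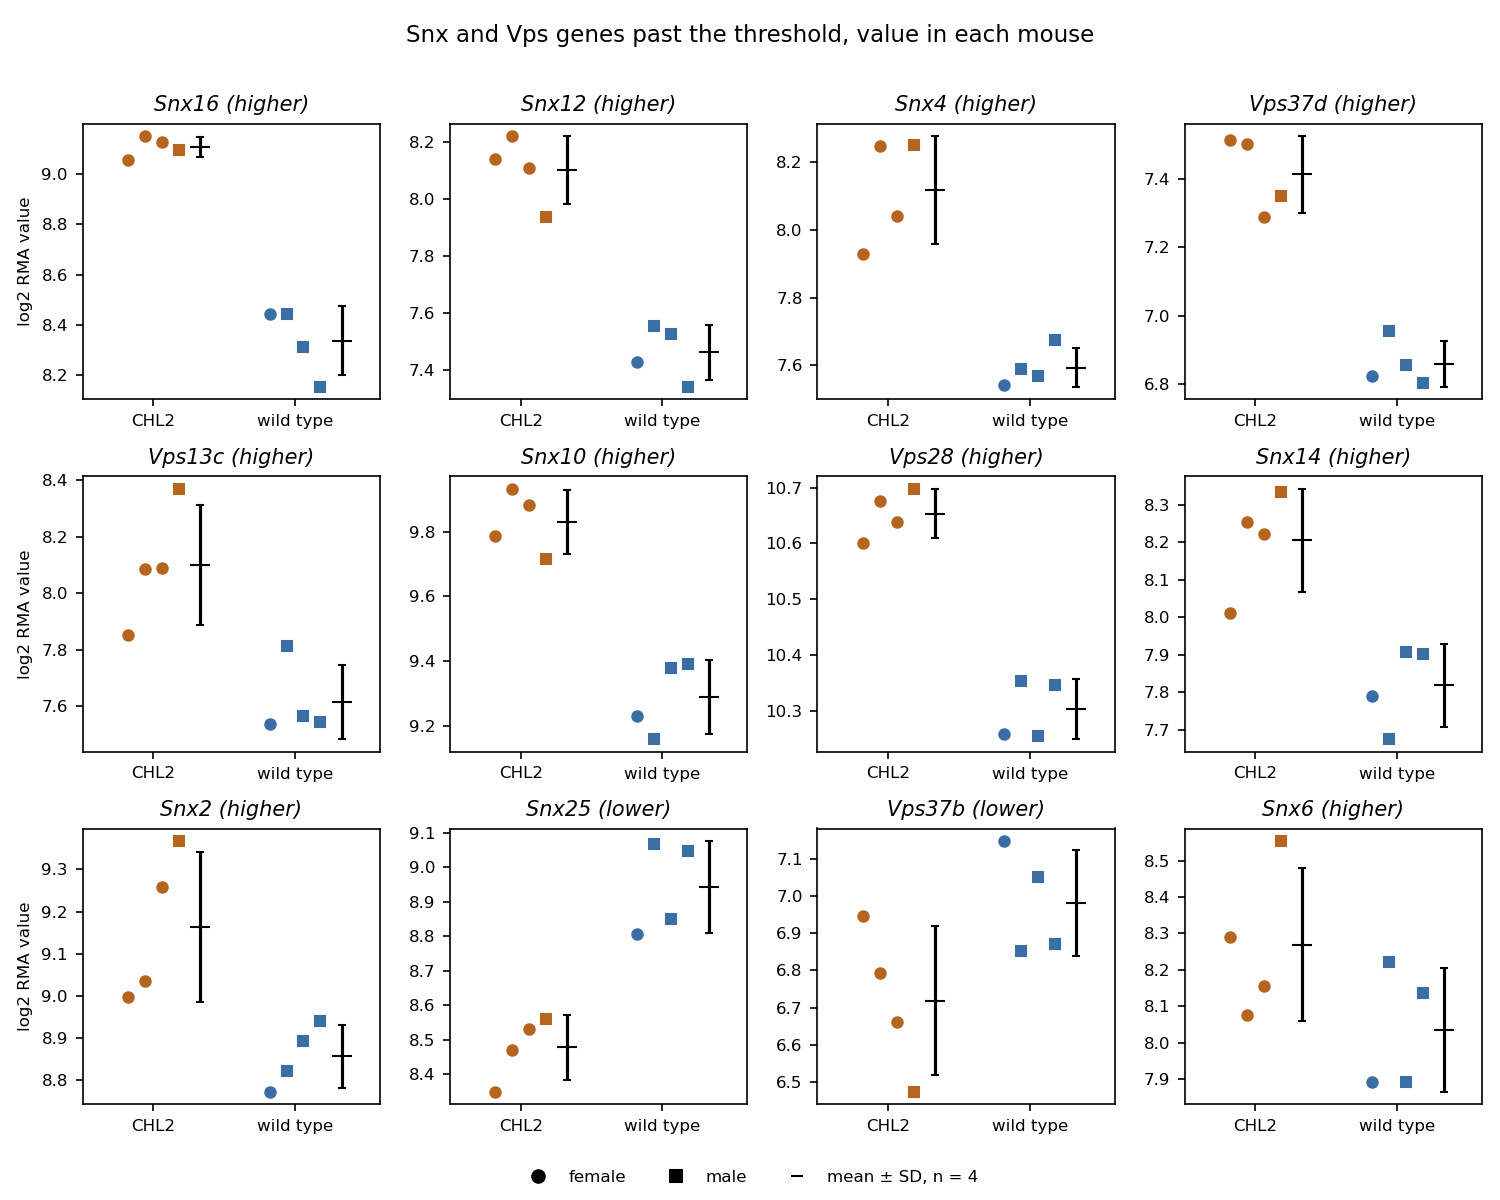
Log2 RMA level (vertical axis) in each mouse of the 12 genes that passed the test, with CHL2 mice left of wild-type mice and the group mean ± SD beside the points. In Snx16, Snx12, Snx4, Vps37d, Vps13c, Snx10, Vps28, Snx14 and Snx2 every CHL2 point is above every wild-type point, in Snx25 every one is below, and in Snx6 and Vps37b the groups overlap.

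Snx4 was the single higher gene among the 7 other sorting nexins with a BAR domain. That is 14.3% of the class, beside 9.55% of all genes with a level of 5 or more. With 7 genes such a count says little. Snx4 is known for keeping the transferrin receptor on the recycling route and away from lysosomes. Its levels were 7.93, 8.25, 8.04 and 8.25 in CHL2 mice, against 7.54, 7.59, 7.57 and 7.67 in wild-type mice. The wild-type values were close together and all below the CHL2 values (8.12 ± 0.16 and 7.59 ± 0.06, SD, n = 4 each), and the gene was 1.50-fold higher (log2 change 0.58, SE 0.10, limma adjusted p = 0.00348). A second, dim Snx4 probe set at a mean level of 4.14 had a change of -0.03, and on the mean of both the change was 0.28 (adjusted p = 0.0633). Without mouse 191 it was 0.53 (adjusted p = 0.0796). Snx7 and Snx30, the partners with which Snx4 forms dimers, had changes of 0.07 and 0.19 and did not pass (adjusted p = 0.67 and 0.281), and Snx9, Snx18 and Snx33, which act in endocytosis, and Snx8 lay between -0.03 and 0.15.

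The 15 remaining sorting nexins held 3 higher genes (20%), 1 lower gene (6.67%) and a median log2 change of 0.21. Among all genes with a level of 5 or more the shares were 9.55% and 8.87% and the median 0.04. Snx16, an endosomal nexin with a coiled coil that is known to act in traffic of the epidermal growth factor receptor, had the lowest adjusted p of all members. It read 9.06, 9.15, 9.13 and 9.10 in CHL2 mice, against 8.44, 8.44, 8.31 and 8.15 in wild-type mice. The CHL2 values lay close together and far above the wild-type values (9.11 ± 0.04 and 8.34 ± 0.14, SD, n = 4 each), a 1.66-fold difference (log2 change 0.73, SE 0.09, limma adjusted p = 0.000739). Both of its other probe sets passed as well in the fit over all probe sets, with changes of 0.56 and 0.89 (adjusted p = 0.0051 and 0.00201). With sex in the fit and a mouse left out, limma's adjusted p for them reached 0.13 and 0.0651, so these calls could be lost. In the fits with 1 value per gene, Snx16 alone among the members passed in all 25 alternatives at the threshold of 0.05.

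Snx10, whose loss in humans causes osteopetrosis through failing osteoclasts, read 9.79, 9.93, 9.88 and 9.72 in CHL2 mice, against 9.23, 9.16, 9.38 and 9.39 in wild-type mice. The lowest CHL2 mouse was above the highest wild-type mouse, and the gene was 1.44-fold higher (log2 change 0.52, SE 0.10, limma adjusted p = 0.00648). Averaging its 2 probe sets ended the call (0.38, adjusted p = 0.173), as did leaving out mouse 161 (0.41, 0.132). Snx17, which binds receptors of the low density lipoprotein family and sends them to the retriever complex, had a change of 0.23 and did not pass (adjusted p = 0.14).

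Snx13, Snx14 and Snx25 carry a domain of regulators of G protein signalling beside the PX domain, and with their relative Snx19, which lacks it, they are anchored in membranes. Within this small family Snx14 was higher and Snx25 lower. Snx14, whose loss causes a human cerebellar ataxia, read 8.01, 8.25, 8.22 and 8.34 in CHL2 mice, against 7.79, 7.67, 7.91 and 7.90 in wild-type mice. The groups did not overlap, and the difference was 1.36-fold (log2 change 0.44, SE 0.10, limma adjusted p = 0.0176). Snx25 read 8.35, 8.47, 8.53 and 8.56 in CHL2 mice, against 8.81, 9.07, 8.85 and 9.05 in wild-type mice. Every CHL2 mouse was below every wild-type mouse, and the gene was 1.31-fold lower (log2 change -0.39, SE 0.09, adjusted p = 0.0189). Without mouse 191 the changes were 0.37 for Snx14 (adjusted p = 0.219) and -0.36 for Snx25 (0.199), and without mouse 161 they were 0.51 (0.0914) and -0.43 (0.118), so neither passed then.

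Snx13 was the member nearest to the threshold from outside. It read 8.97, 9.05, 9.11 and 9.22 in CHL2 mice, against 8.75, 9.05, 8.94 and 8.86 in wild-type mice. The groups overlapped at wild-type mouse 170, and the change was 0.28 (SE 0.08, limma adjusted p = 0.0545). Snx19 had a change of 0.21 (adjusted p = 0.188). Snx31, the dimmest member, read below 5 in all 8 mice, as did Snx20 and Vps25, and values that low carry little signal (Snx31 log2 change 0.20, adjusted p = 0.333).

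Of the 9 Vps genes of the ESCRT complexes, 2 were higher and 1 lower, with a median log2 change of 0.18. That is 33.3% of the class, beside 12.4% of all genes and 18.4% of those with a level of 5 or more. With 9 genes such a count says little. All 3 encode subunits of ESCRT-I, which takes over ubiquitinated cargo. Vps28, a core subunit, read 10.60, 10.68, 10.64 and 10.70 in CHL2 mice, against 10.26, 10.35, 10.25 and 10.35 in wild-type mice. The spread within each group was small (10.65 ± 0.04 and 10.30 ± 0.05, SD, n = 4 each), and Vps28 was 1.30-fold higher (log2 change 0.38, SE 0.08, limma adjusted p = 0.00945). Vps37a to Vps37d are alternative subunits at 1 place in ESCRT-I. Vps37d read 7.51, 7.50, 7.29 and 7.35 in CHL2 mice, against 6.82, 6.95, 6.86 and 6.80 in wild-type mice. The groups lay apart, and Vps37d was 1.46-fold higher (log2 change 0.54, SE 0.09, adjusted p = 0.00394).

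Vps37b went the other way. It read 6.95, 6.79, 6.66 and 6.47 in CHL2 mice, against 7.15, 6.85, 7.05 and 6.87 in wild-type mice. The groups overlapped, with CHL2 mouse 141 above 2 wild-type mice, and the sex-adjusted change was -0.40 (SE 0.10, 1.32-fold lower, limma adjusted p = 0.0239). Without a sex term it was -0.26 and did not pass (adjusted p = 0.141). Vps37a and Vps37c had changes of 0.20 and 0.18 and did not pass (adjusted p = 0.178 and 0.453). The calls of Vps28 and Vps37b were lost without mouse 191 (0.38, adjusted p = 0.11, and -0.35, 0.243), and those of Vps28, Vps37d and Vps37b without mouse 161 (0.38, 0.1; 0.48, 0.0817; and -0.45, 0.121). The ATPases Vps4a and Vps4b, which take ESCRT filaments apart, had changes of 0.13 and 0.07, and Vps36 of ESCRT-II had 0.24, none of them past the threshold.

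Of the 4 Vps13 genes, Vps13c was higher. That is 25% of the class, beside 9.55% of all genes with a level of 5 or more. With 4 genes such a count says little. The protein of Vps13c bridges the endoplasmic reticulum to late endosomes and lysosomes, and its loss causes early-onset parkinsonism in humans. It read 7.85, 8.09, 8.09 and 8.37 in CHL2 mice, against 7.54, 7.81, 7.57 and 7.55 in wild-type mice. The highest wild-type value came from mouse 170 and stayed just below the lowest CHL2 value, and the difference was 1.52-fold (log2 change 0.60, SE 0.11, limma adjusted p = 0.00578). A second, very dim Vps13c probe set at a mean level of 3.37 had a change of -0.12. The call was lost on the mean of both probe sets (0.24, adjusted p = 0.0812), without mouse 191 (0.47, 0.135) and without moderation of the variances. Vps13a, whose loss causes chorea-acanthocytosis in humans with degeneration of the striatum, had a change of -0.01 at its brightest probe set, and Vps13b and Vps13d had -0.06 and 0.12, none of which passed.

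Neither the tethers nor retriever held a gene that passed by limma, beside 12.4% of all genes, and 1 of these 15 genes, Vps33a, had an unadjusted p under 0.05. Of the 8 HOPS, CORVET and CHEVI subunits the lowest adjusted p was that of Vps33a, which steers SNARE assembly at lysosomes. It read 8.69, 8.67, 8.52 and 8.80 in CHL2 mice, against 8.30, 8.54, 8.51 and 8.68 in wild-type mice. The groups overlapped (log2 change 0.27, SE 0.09, limma adjusted p = 0.0689). Vps33a passed with a trended and robust prior (adjusted p = 0.0336) and with genes under the median level left out (0.0287), and the other 7 tether genes of this class lay between -0.10 and 0.12. The 5 GARP and EARP subunits lay between -0.12, for Vps52 (adjusted p = 0.488), and 0.04. In retriever, the retromer-like complex that recycles integrins and lipoprotein receptors, Vps26c had 0.16 (adjusted p = 0.25) and Vps35l 0.10 (0.618). Of the 3 genes outside these classes, Vps9d1, which has a domain that activates endosomal Rab proteins, had the lowest adjusted p (log2 change -0.20, adjusted p = 0.251). Vps72, a chromatin protein that shares only the name, had a change of 0.06.

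The sexes were unequally spread over the genotypes, with 3 of 4 CHL2 mice and 1 of 4 wild-type mice female, so mouse 191 is the single male CHL2 mouse and mouse 161 the single female wild-type mouse. Without mouse 191 the sex-adjusted contrast reduces to 3 female CHL2 mice against mouse 161, and without mouse 161 to mouse 191 against 3 male wild-type mice. By limma, 4 members passed without mouse 191 (Snx16, Snx12, Vps37d and Snx10) and 3 without mouse 161 (Snx16, Snx4 and Vps13c). Calls fell over the whole array too, from 2258 of 18193 genes to 702 without mouse 191 and 864 without mouse 161. With the sex term dropped as well, 9 of the 12 passed without mouse 191 and the same 9 without mouse 161, which are all but Snx2, Snx6 and Vps37b. Among all genes 2497 and 2400 passed in these fits. By sex, the change was 0.67 in females and 0.79 in males for Snx16, and -0.36 and -0.43 for Snx25. The sex-adjusted change that chose the 12 is the mean of such a pair, so a shared sign is no further support. A term for a genotype effect that differs between the sexes passed in 0 of 65 members by limma (0 also at an unadjusted p under 0.05), beside 0.0055% of all genes after adjustment and 5.04% before it. That term rests on 2 single mice. In the level itself males and females differed by limma in 0 of 65 members (8 at an unadjusted p under 0.05), beside 0.0275% of all genes (1932 of 18193 at an unadjusted p under 0.05).

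**Figure D3:**
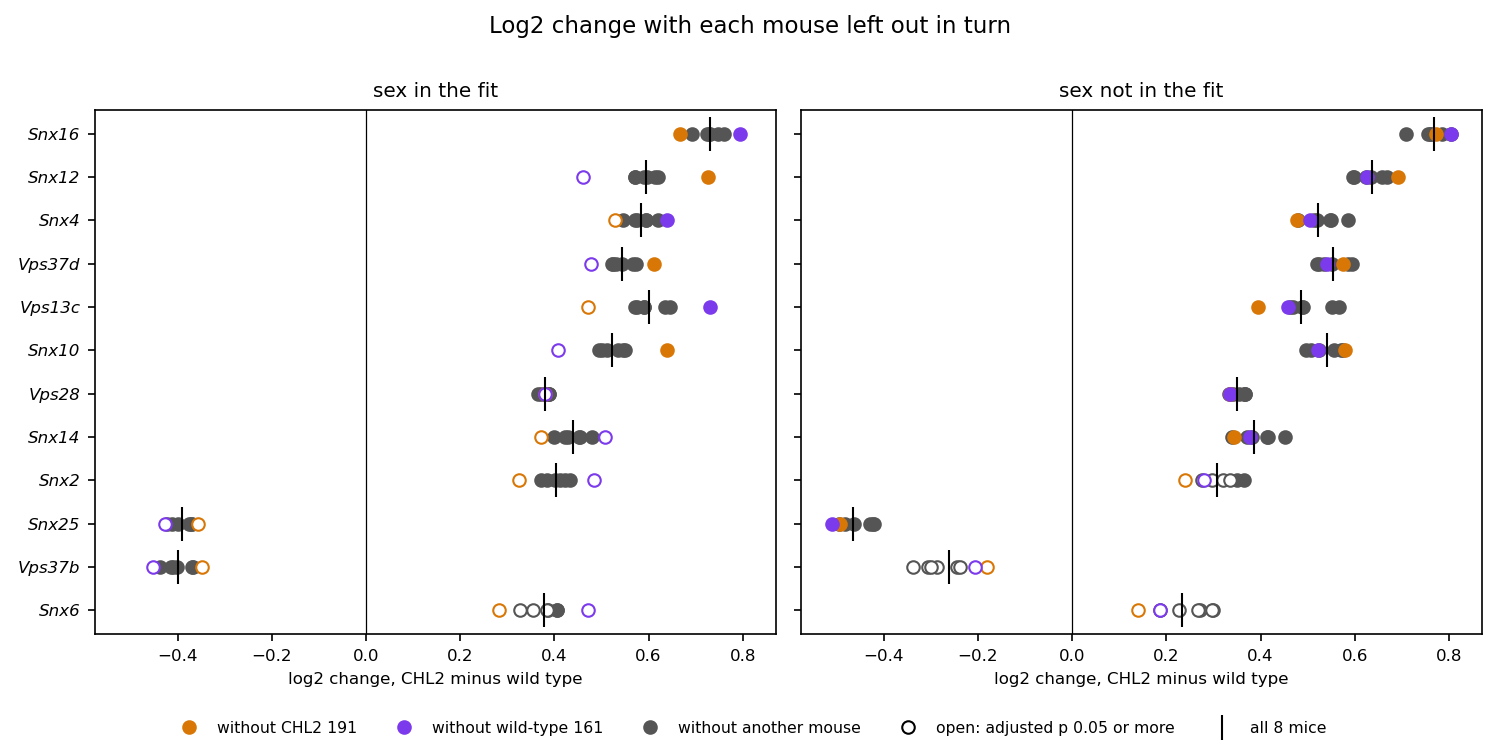
Log2 change (CHL2 minus wild type, horizontal axis) of the 12 genes that passed, with all 8 mice (vertical tick) and with each mouse left out in turn, with sex in the fit on the left and without it on the right; filled points passed an adjusted p of 0.05 and open points did not. Each of the 12 genes kept its sign throughout; with sex in the fit the open points belong to the fits without mouse 191 or mouse 161, and for Snx6 to others too, while without sex they belong to Snx2, Vps37b and Snx6.

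The members had 138 probe sets of their own, and 38 members had more than 1. Of the 73 probe sets that were not the brightest of their gene, 5 passed in the fit over all 45037 probe sets, where 6.7% passed in all. Apart from the pair of Snx16, these were 1 probe set each of Vps51, Vps53 and Vps13a, all singled out after their values were seen. The Vps51 probe set, at a mean level of 5.74, read 6.39, 6.74, 6.46 and 6.55 in CHL2 mice, against 5.18, 4.09, 5.15 and 5.33 in wild-type mice. The groups lay more than a unit apart, mouse 170 lay lowest, and the log2 change was 1.52 (SE 0.27, limma adjusted p = 0.00992), or 1.33 without mouse 170 (adjusted p = 0.000395). The wild-type mean of 4.94 lies under the level of 5 that is called dim here, so no fold is given. The brightest Vps51 probe set had a change of -0.11 and another dim one 0.09, so the probe sets of this GARP and EARP subunit disagreed.

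The Vps53 probe set read 7.11, 7.06, 7.42 and 7.31 in CHL2 mice, against 6.91, 6.61, 6.71 and 6.59 in wild-type mice. Its change was 0.48 (limma adjusted p = 0.0481), while the brightest Vps53 probe set had -0.02. The Vps13a probe set read 5.22, 5.23, 5.54 and 5.50 in CHL2 mice, against 5.97, 6.17, 5.93 and 5.82 in wild-type mice. Every CHL2 value was lower, with a change of -0.56 (adjusted p = 0.0261), and the other 4 probe sets of Vps13a had changes between -0.22 and -0.01. Without mouse 191 none of the 3 passed (Vps51 1.35, adjusted p = 0.174; Vps53 0.29, 0.498; Vps13a -0.64, 0.15), nor without mouse 161 (1.70, 0.0873; 0.67, 0.0891; -0.47, 0.291). Where each probe set lies on its transcripts was not used here. Of 9 further probe sets of the 12 genes that passed, 7 had the sign of the brightest.

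**Figure D4:**
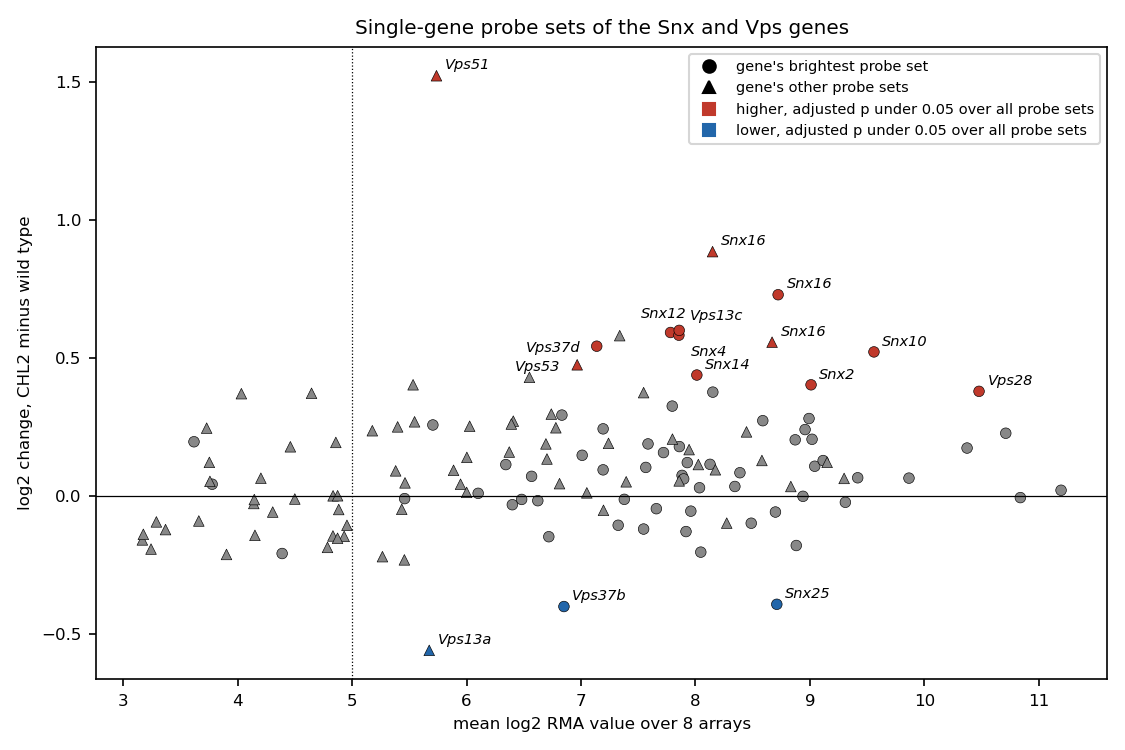
Log2 change (CHL2 minus wild type, vertical axis) against mean log2 level over the 8 arrays (horizontal axis) for the 138 single-gene probe sets of the members; circles are each gene's brightest probe set, triangles its others, and colours mark an adjusted p under 0.05 over all probe sets. The Vps51 triangle at 1.52 is the highest point, and the Snx16 probe sets lie together at 0.56 to 0.89.

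Around the members, 95 genes of the same routes were measured, from lists of their complexes, cargo and regulators. Of these 13 were higher (13.7%) and 7 lower (7.37%), beside 6.4% and 6.01% of all genes and 9.55% and 8.87% of genes with a level of 5 or more. Their median log2 change was 0.11, and 0.05 without a sex term. Without mouse 141 the higher genes numbered 8, and without mouse 200 they numbered 5. The WASH complex, which builds actin patches on endosomes and binds Vps35, had 4 of 8 genes higher and 0 lower. Capza1, an actin capping protein in that complex, read 8.81, 8.78, 8.68 and 8.92 in CHL2 mice, against 8.37, 8.26, 8.24 and 8.27 in wild-type mice. The groups were clearly separate (log2 change 0.52, SE 0.09, limma adjusted p = 0.00388). Washc5 had a change of 0.37 (adjusted p = 0.0352), Washc4 of 0.36 (0.0245) and Washc2, the subunit that binds retromer, of 0.31 (0.0291). The number of higher genes in this complex was 2 without mouse 141 or mouse 180, 1 without mouse 200 or mouse 161, and 0 without mouse 191. Washc2 and Washc5 were the ones lost without mouse 141 or 180 (adjusted p = 0.0519 to 0.0659).

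Of 12 COMMD and CCC genes, which work with retriever, Commd7 (0.31, limma adjusted p = 0.0358) and Commd4 (0.30, 0.0253) were higher. That is 16.7% of the list, beside 9.55% of all genes with a level of 5 or more. Commd7 did not pass after quantile normalization again (0.28, 0.0571) or without mouse 141, 170 or 200 (0.0533 to 0.0753), nor Commd4 without mouse 200 (0.31, 0.052). Of 21 partners of the ESCRT genes 2 were higher (9.52%) and 0 lower, beside 9.55% and 8.87% of all genes with a level of 5 or more. These were Stam2, an ESCRT-0 subunit (0.42, 0.0208), and Chmp2b, an ESCRT-III subunit mutated in human frontotemporal dementia (0.33, 0.0287). For Stam2, 3 of the 6 probe sets had the opposite sign, and the mean over its probe sets gave 0.10 (0.493). The lowest change in the list was -0.49. Chmp1b passed as lower in some alternatives, among them no sex term and a trended and robust prior. Chmp2b did not pass without a sex term (0.24, 0.0757) or, with it, without mouse 141 (0.31, 0.053) or mouse 200 (0.30, 0.0582). The tether partners Tgfbrap1 (0.20, 0.21) and Vipas39 (0.08, 0.606) did not pass.

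Several genes of cargo and signalling were lower. Among 11 sorting receptors and cargo proteins 3 were lower (27.3%) and 1 higher (9.09%), beside 8.87% and 9.55% of all genes with a level of 5 or more. With 11 genes such counts say little. Sort1, or sortilin, a retromer cargo that carries neurotrophin precursors and lysosomal proteins, read 10.00, 10.02, 9.96 and 9.82 in CHL2 mice, against 10.44, 10.60, 10.43 and 10.35 in wild-type mice. All CHL2 values were lower (log2 change -0.54, SE 0.09, limma adjusted p = 0.00388), and its relatives Sorcs3 (-0.52, 0.0153) and Sorcs2 (-0.69, 0.0297) were lower too. On the mean of its probe sets Sort1 was at -0.28 (0.0571) and Sorcs3 at -0.55 (0.0652), and Sorcs2 did not pass without mouse 153, 154, 180 or 200 (0.0519 to 0.058). Wls, the Wnt carrier that retromer and Snx3 retrieve, was higher (0.40, 0.0161). Of 14 phosphoinositide genes, the phosphatases Fig4 (-0.58, 0.00414) and Mtm1 (-0.76, 0.0165) were lower (14.3%) and 0 were higher. Mtm1 was at -0.35 (0.189) on the mean of its probe sets.

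Of 27 endosomal Rab proteins and effectors, 4 were higher (14.8%) and 2 lower (7.41%), beside 9.55% and 8.87% of all genes with a level of 5 or more. The 2 lower ones had the largest changes of the 95 genes. Rin1, an exchange factor for Rab5 that is known from forebrain neurons, read 8.13, 7.77, 7.69 and 7.57 in CHL2 mice, against 8.88, 8.35, 8.91 and 8.81 in wild-type mice. The groups did not overlap even with the lower wild-type mouse 170 (log2 change -1.07, SE 0.16, limma adjusted p = 0.00163). Lrrk2, a kinase of Rab proteins that is mutated in human parkinsonism and found in medium spiny neurons, read 7.28, 7.21, 7.47 and 7.81 in CHL2 mice, against 8.46, 8.51, 8.38 and 8.46 in wild-type mice. Wild-type values were tight and all above the CHL2 values (log2 change -0.89, SE 0.12, adjusted p = 0.000996). The fall in these 2 genes stood beside that of the 12 medium spiny neuron markers, whose part in it was not tested. The higher genes were Rab4b (0.44, 0.0151), Rab21 (0.38, 0.049), Rab31 (0.36, 0.0258) and Ankfy1 (0.33, 0.0418). Rab21 did not pass without mouse 154, 170, 180 or 200 (0.0657 to 0.0923), Ankfy1 without mouse 141, 153, 154, 180 or 200 (0.0557 to 0.0831), and Rab31 on the mean of its probe sets (0.33, 0.224). Without mouse 191 the calls of Lrrk2 and Rin1 alone were kept among the 20, and without mouse 161 those of Capza1, Fig4, Lrrk2, Rin1 and Sort1. With the sex term left out as well, 17 of the 20 passed without mouse 191 and 17 without mouse 161.

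**Figure D5:**
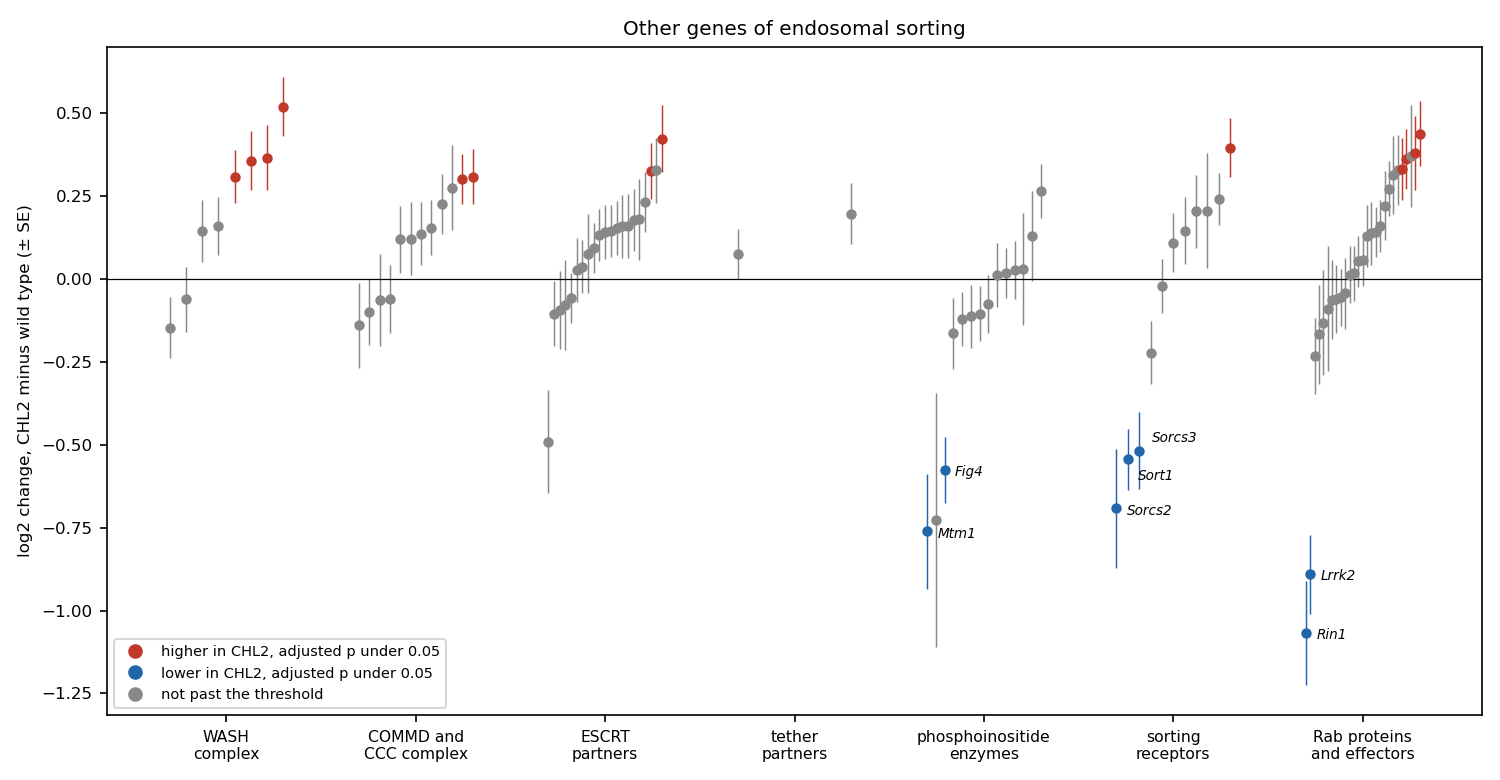
Log2 change (CHL2 minus wild type, vertical axis) of the 95 related genes with its SE as the bar, grouped by complex or role along the horizontal axis, with coloured points past an adjusted p of 0.05. The WASH complex has 4 higher genes, while the lowest points are Rin1 at -1.07 and Lrrk2 at -0.89.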

How the data were processed

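Each of the 8 mice gave striatal total RNA for 1 Affymetrix Mouse Genome 430 2.0 array, after TRIzol and RNeasy extraction and biotin labelling by in vitro transcription, per the labels' protocols. The deposited log2 values were made by the authors with RMA and the affy package, per the submitters' processing notes. Not given in the sources used here are their versions and which arrays were normalized as a set. The method removes background, gives all arrays 1 distribution and summarises probes, so a shift shared by most genes is hidden and changes of dim genes are compressed. Values ran from 2.60 to 14.5, array medians from 4.95 to 4.98, and pairs of arrays correlated at 0.990 to 0.996 within groups and 0.983 to 0.991 between them. Read depth has no meaning here, and the number of arrays limits the precision.

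Of 45101 probe sets 64 were controls and were left out. Of the rest, 34945 had 1 symbol in the platform annotation, 932 several and 9160 were not listed there, and the last groups were not named. The brightest single-symbol probe set stood for each of 18193 genes, of which 18032 were found in the RefSeq gene table (0 symbols changed), all 65 members among them. The tests were limma 3.58.1 (R 4.3.3), lmFit and eBayes, with genotype and recorded sex as terms and Benjamini-Hochberg adjustment over all genes, the same with an interaction term, and the same over every non-control probe set. The procedure was tested on simulated data. A level under 5 is called dim. Each mouse number in the labels stands for its own animal, and CHL2 and wild-type mice share none. The members, lists, motifs and the rule for named genes were chosen with earlier results of these data known. The rule names the members past the threshold, the retromer core, the best of each role class without a call, the brightest and dimmest members, the 3 just outside the threshold, the 2 lowest adjusted p of each related list, related genes past the threshold, and Htt. Members named beyond it serve the description of their class and were picked after their values were seen. The alternatives tried were a fit with no sex term, a threshold of 0.01, a floor at log2 of 32, a second quantile normalization, centring on the median, a mean over probe sets, genes under the median level left out, a trended and robust prior, weights for arrays, ordinary variances, and each mouse left out with and without sex.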

Additional observations from a re-analysis of the deposited data

Results flagged for a closer look

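A mouse was looked for whose value lay far from the other 3 of its group, by Dixon's ratio of its gap to the group's whole range, in 104 groups of 4 mice, and chance alone marks about 5% of such groups. It marked 6 groups, in 4 of which the mouse was wild-type mouse 170. Vps13c read 7.81 in wild-type mouse 170 and 7.54 to 7.57 in the other wild-type mice (ratio 0.899). The Vps51 probe set with the large change read 4.09 in wild-type mouse 170 and 5.15 to 5.33 in the others (ratio 0.855). Rin1 read 8.35 in wild-type mouse 170 and 8.81 to 8.91 in the others (ratio 0.831). Tgfbrap1, which did not pass limma's test between the groups, read 8.53 in that mouse and 8.25 to 8.29 in the others (ratio 0.854). Ankfy1 read 8.33 in CHL2 mouse 153 and 8.20 to 8.22 in the other CHL2 mice (ratio 0.837). Wls read 6.57 in wild-type mouse 180 and 6.34 to 6.36 in the other wild-type mice (ratio 0.904). Mouse 170 also had the high 3' minus 5' differences given above, and the part of RNA quality in its values was not tested.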

How the results depend on the processing

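The count of 10 higher members fell to 6 without moderation of the variances, and with a mouse left out it ran from 3 (without mouse 161) to 11. The 2 lower members became 1 with no sex term, 1 with a floor at log2 of 32, and 0 both without moderation and at an adjusted p under 0.01, and with a mouse left out they ran from 0 to 2. Among related genes the 13 higher became 7 without moderation and 1 at an adjusted p under 0.01, and with a mouse left out 0 (without mouse 191) to 14. The 7 lower related genes became 4 on the mean of all probe sets, 4 without moderation, 4 with the floor and 4 at an adjusted p under 0.01, and with a mouse left out 2 to 8. The shares of all genes moved as well. They were 3.78% higher and 3.50% lower without moderation, and 2.47% and 3.18% at an adjusted p under 0.01. With the floor they were 4.66% and 4.14%, and on the mean of all probe sets 5.00% and 5.39%. With a mouse left out they ran from 1.61% to 6.63% higher and from 2.25% to 7.10% lower. The interaction count was 0 in each setting run. Without mouse 141 and without mouse 200 the higher related genes numbered 8 and 5. The cause of these shifts was not tested, apart from the smaller contrasts that leaving out mouse 161 or 191 makes by construction. Of the named genes recomputed under each alternative, Snx3 and Vps29, neither past the threshold, turned sign. Snx3 was at -0.00628 after quantile normalization again, and with a mouse left out between -0.00603 and 0.0494. With the sex term dropped too it was -0.0032 without mouse 141, -0.000247 without 153, -0.00924 without 191, -0.00183 without 180 and -0.0207 without 200. Vps29 was at 0.00515 after quantile normalization again, 0.00393 with arrays centred on the median, 0.0589 on the mean of its probe sets, and between -0.0500 and 0.0403 with a mouse left out. Of 1340 values recomputed for 52 named genes and probe sets, 1103 kept sign and side of the threshold, 207 kept the sign and no longer passed, 16 newly passed and 14 turned sign. A trended and robust prior gave 17 calls and leaving out genes under the median level gave 16, each holding all 12 members. With that prior 8.17% of all genes were higher and 7.04% lower. Of the genes left after the median cut, 15.4% were higher and 12.5% lower. The calls lost without moderation were those of Snx14, Snx2, Snx25, Snx6, Vps13c and Vps37b. Without a sex term the sign also turned in 4 members outside the rule for named genes, none past the threshold: Vps4b (-0.13), Vps25 (-0.04), Snx33 (-0.03) and Snx27 (0.00). Snx31 has no value with the floor, since all its values lie under it. No paired analysis was possible because the groups share no mouse number. With 4 arrays a group and 1 mouse in 2 of the sex and genotype cells, small changes could not be resolved, and dim probe sets lie near background.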
